A study of Mus musculus with 56 samples.

Results

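WT regulatory T (Treg) cells polarized in vitro are represented by 7 of the 56 RNA-seq libraries in the series, 4 in a table of gene counts from mice of an Odc cross (31 libraries, WT and deficient) and 3 in a table from mice of a Dohh cross (24 libraries). The tables hold 55 of the 56 libraries, and the other one, of Odc-deficient TH2 cells, was not analysed here. These 7 libraries were chosen by their labels alone and are compared here with the 7 TH1, 7 TH2 and 7 TH17 libraries of WT cells, set by set, so that the Dohh set replicates the Odc set in other libraries. The study asked how polyamine and hypusine synthesis act on T helper cell fate, and the WT cells were its controls. All mice were C57BL/6. By the study's methods, controls were littermates of the deficient mice, matched to them by sex and age, males and females both served, and the usual age was 6 to 10 weeks, while the age and sex behind single libraries are not given in the sources used here. WT mice belonged to crosses of Odc flox/flox or Dohh flox/flox mice with mice that carry Cre driven by the CD4 promoter. According to the study's methods, the controls lacked Cre. CD4+ T cells, naive by the study's account, were taken by negative selection from spleen and lymph node, activated with antibodies to CD3 (5 µg/mL) and CD28 (2 µg/mL) in the presence of IL-2 (100 U/mL), and analysed on day 4. To Treg cultures were added TGF-β and IL-2, both at 10 ng/mL, and antibodies to IFN-γ and IL-4, both at 4 µg/mL. TH17 cultures also held TGF-β, at 5 ng/mL, with IL-6 (5 ng/mL), IL-1β and antibodies to IFN-γ and IL-4, both at 10 µg/mL, and no added polarizing IL-2. TH1 cultures held IL-12 (10 ng/mL) and 4 µg/mL antibody to IL-4, and TH2 cultures IL-4 (10 ng/mL) and 4 µg/mL antibody to IFN-γ, both with 10 ng/mL IL-2 and no TGF-β. The subsets thus differed in cytokines and in blocking antibodies. No sort of the cultured cells before RNA extraction is described, so each library is a whole culture, and in such bulk samples fewer cells of a type and less RNA per cell cannot be told apart. Nothing states which libraries came from the same mouse, so p-values measure the spread between these libraries only.

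Treg cells restrain other T cells and depend on the transcription factor Foxp3, which is switched on in naive CD4+ T cells by T cell receptor signals together with TGF-β and IL-2. TGF-β acts through a type I and a type II receptor and SMAD proteins, IL-2 acts through STAT5, and both reach the Foxp3 locus. TGF-β also takes part in TH17 polarization, where IL-6 is added. T-bet (Tbx21) and GATA3 (Gata3) are the lineage factors of TH1 and TH2 cells.

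Treg libraries held 8050429 to 9145214 counts in the Odc set and 8588300 to 12576933 in the Dohh set. Over all WT libraries, totals were 6978044 to 9145214 and 8328721 to 12576933. Levels are given as CPM, based on library sizes after TMM scaling, and are not adjusted for gene length, so levels are compared between libraries and not between genes. Where a library has 0 counts of a gene, the true level may be up to 3 counts (95% limit), or 0.312 to 0.44 CPM in the Odc set and 0.231 to 0.377 CPM in the Dohh set. These limits cover counting error only. In the WT libraries, 275 genes with at least 500 counts in the Odc set had at most 5 in the Dohh set, and 13 genes showed the reverse. The sets may have been counted differently, which was not tested. Libraries of every subset expressed the T cell genes Cd3e, Cd3d, Cd3g, Cd4 and Trac. Cd3e, for example, had 182 to 289 CPM in the Treg libraries of the Odc set and 214 to 256 CPM in those of the Dohh set, inside or close to the ranges of the other subsets, and none of the 5 genes differed by a call. Replicate 4 of the Treg libraries in the Odc set was low in several of these genes, at 491 CPM of Cd4 against 790 to 1061 CPM in the other 3. All 4 WT libraries numbered 4 in this set stood apart from replicates 1 to 3, and the counts of genes called are also given without them for the Odc set.

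Foxp3 (ENSMUSG00000039521.12, chrX:7573644-7595245 of GRCm38, plus strand) marked the Treg libraries. It had 422, 474, 403 and 620 CPM in the 4 Treg libraries of the Odc set, against 5.26 to 6.94 CPM in TH1, 2.13 to 4.28 CPM in TH2 and 12.9 to 25.7 CPM in TH17 libraries. In the Dohh set it had 566, 604 and 599 CPM in Treg libraries, against 7.17 to 8.67, 2.18 to 3.69 and 36.5 to 51.0 CPM. No Treg library overlapped with a library of another subset, and TH17 libraries came second in both sets. For each gene, the log2 fold change of Treg against each other subset was fitted, and the one nearest to 0 is called the nearest difference. For Foxp3 it was 4.80 ± 0.21 (SE) in the Odc set (adjusted p = 6.9e-11) and 3.69 ± 0.14 in the Dohh set (adjusted p = 9.37e-14), both from the quasi-likelihood test of edgeR, adjusted by Benjamini and Hochberg's method like all adjusted p-values here. The labelled cell type and its defining marker thus went together in all 7 libraries. Flicr, a noncoding gene that overlaps Foxp3 (named after its values were seen), had 5.08 to 8.01 CPM in Treg libraries of the Odc set and at most 1.50 CPM elsewhere, and 2.23 to 3.77 CPM against at most 1.49 CPM in the Dohh set. It lies at chrX:7573600-7581027, so reads from the shared stretch cannot be told apart from those of Foxp3.

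The sequence before one of the annotated starts of Foxp3 is shown because this gene defines the comparison. It was taken from RefSeq promoter windows of GRCm38.p6, searched on both strands over 250 bases upstream of the start for 6 short motifs: the CRE core TGACGT, the NBRE AAAGGTCA, the SMAD box CAGACA, the GAS element TTCNNNGAA, the forkhead motif TGTTTAC and the AP-1 site TGANTCA. The stretch chrX:7580233-7580482 (plus strand) holds 1 GAS letter match, in capitals, 139 bases upstream of that start. The window before another annotated start of Foxp3, chrX:7579426-7579675, holds none of the 6 motifs and is not shown. GAS is the motif read by STAT proteins, and 7.02% of 32851 such windows hold one. The stretch lies in an intron of Foxp3 transcripts that start further upstream and overlaps an exon of Flicr.
Foxp3: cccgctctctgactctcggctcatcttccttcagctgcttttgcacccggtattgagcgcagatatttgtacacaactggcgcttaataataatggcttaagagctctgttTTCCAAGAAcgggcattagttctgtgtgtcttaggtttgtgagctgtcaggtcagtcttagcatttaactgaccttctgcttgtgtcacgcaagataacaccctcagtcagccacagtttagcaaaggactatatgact
A letter match is a description and shows no binding.

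**Figure D1:**
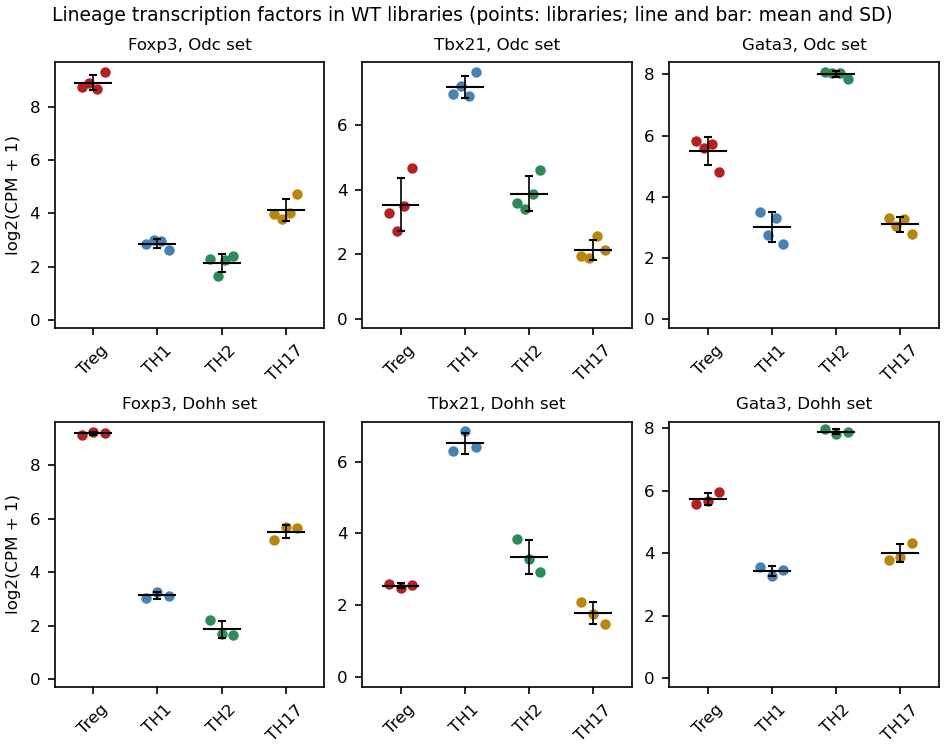
Levels of Foxp3, Tbx21 and Gata3 as log2(CPM + 1) in WT Treg, TH1, TH2 and TH17 libraries of the Odc set (top row) and the Dohh set (bottom row). Points are libraries, and lines and bars are the mean and SD. Foxp3 was 403 to 620 CPM in all 7 Treg libraries and at most 51.0 CPM elsewhere.

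The factors of TH1 and TH2 cells were at intermediate or low levels in Treg cells. Tbx21 had 8.70, 5.62, 10.2 and 24.6 CPM in Treg libraries of the Odc set and 5.07, 4.52 and 4.85 CPM in those of the Dohh set, against 120 to 202 and 77.6 to 115 CPM in TH1 libraries. The Treg values lay below TH1 and near the TH2 libraries, which had 9.59 to 23.7 and 6.53 to 13.3 CPM. TH17 libraries were lowest, at 2.65 to 4.94 and 1.79 to 3.27 CPM, and Tbx21 was called higher in Treg than in TH17 cells in the Odc set (1.82 ± 0.42) but not in the Dohh set (0.92 ± 0.29, a difference below 2-fold). Against the mean of the others it was called lower in the Dohh set, and in the Odc set only without Treg replicate 4 (-1.26) or without all libraries numbered 4. Gata3 had 27.0 to 55.4 CPM in Treg libraries of the Odc set and 47.2 to 61.0 CPM in those of the Dohh set. These levels were called lower than in TH2 (231 to 272 and 223 to 252 CPM) and called higher than in TH1 (4.53 to 10.3 and 8.57 to 10.8 CPM) and TH17 libraries (5.88 to 8.97 and 12.8 to 19.0 CPM). The plot of lineage factors shows this order: in both sets Foxp3 alone of the 3 was highest in Treg cells.

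Over all genes, Treg cells stood furthest from TH2 and TH1 cells and closest to TH17 cells. On variance-stabilized counts of the 500 most variable genes, the distance between group means was 45.5 to TH1, 46.6 to TH2 and 36.2 to TH17 in the Odc set, and 49.4, 53.2 and 29.4 in the Dohh set. A gene was called at a more than 2-fold difference and an adjusted p-value below 0.05. Against TH1 cells, 2454 of 12878 genes were called in the Odc set (19.1%), 1068 higher (8.29%) and 1386 lower (10.8%) in Treg cells, and 2439 of 12825 genes in the Dohh set (19%), 1128 higher (8.8%) and 1311 lower (10.2%). Against TH2 cells, 2640 (20.5%) and 2619 genes (20.4%) were called, with 8.95% and 9.89% of all genes higher and 11.6% and 10.5% lower. Against TH17 cells, 1784 (13.9%) and 1334 genes (10.4%) were called, with 6.86% and 4.7% higher and 6.99% and 5.7% lower. These comparisons share the Treg libraries, so each is given on its own. Against the mean of the other 3 subsets, 1991 genes were called in the Odc set (15.5%), 890 higher (6.91%) and 1101 lower (8.55%), and 1824 in the Dohh set (14.2%), 857 higher (6.68%) and 967 lower (7.54%). Without the libraries numbered 4, an alternative chosen after seeing the data, the Odc set gave 2499 calls against TH1, 2731 against TH2, 2026 against TH17 and 2069 against the mean.

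A stricter test asked which genes differed from every other subset in the same direction. It called 760 genes in the Odc set (5.9% of those tested, and 835 genes without the libraries numbered 4), 367 higher (2.85%) and 393 lower (3.05%) in Treg cells, and 587 in the Dohh set (4.58%), 303 higher (2.36%) and 284 lower (2.21%). With the deficient libraries of the Dohh set also in the fit (all 8 groups), the 587 calls fell to 347. Among 12185 genes tested in both sets, 716 were called in the Odc set (5.88%) and 537 in the Dohh set (4.41%), and 398 were called in both, 198 higher and 200 lower, all in the same direction (418 without the libraries numbered 4 of the Odc set, and 269 with all 8 groups in each fit). The shared genes were 55.6% of the calls of the Odc set and 74.1% of those of the Dohh set, and 367 of them are protein coding. Of the 716 genes, 714 had the same sign of the difference from the mean of the other subsets in the Dohh libraries. When only genes with a mean count of at least 50 were tested, 439, 344 and 226 genes were left.

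**Figure D2:**
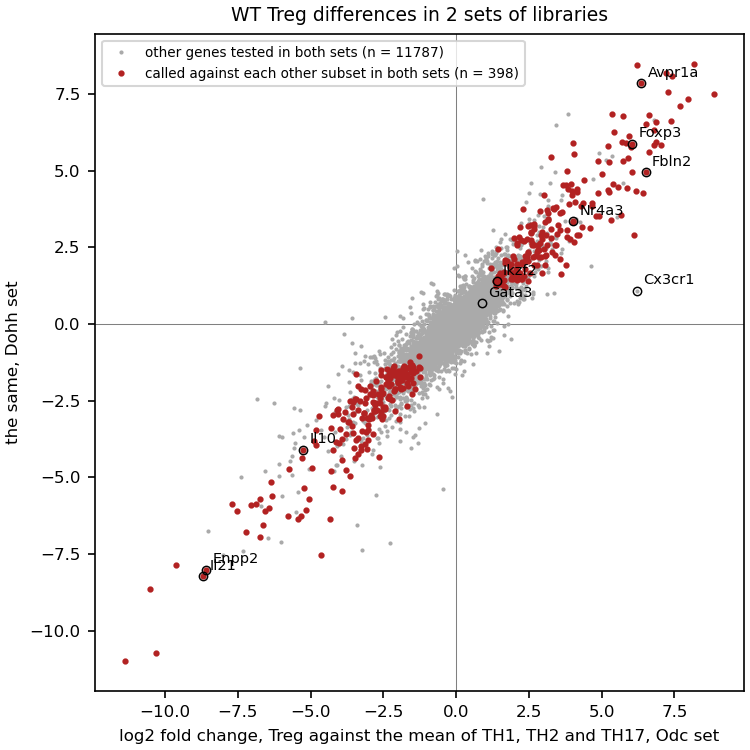
Log2 fold change of Treg against the mean of TH1, TH2 and TH17 cells in the Odc set (horizontal axis) and the Dohh set (vertical axis), 1 point per gene tested in both sets. The 398 genes called against each other subset in both sets are in red and lie in the upper right and lower left, and 11787 other genes are in grey.

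Among the genes with the largest nearest differences in the higher direction in the Odc set, 11 are described here: Pla2g4f, Stxbp6, Fbln2, Ifi203, Drc1, Atp1b1, Idi2, Nav1, Dnah7a, Foxp3 and Avpr1a. Their nearest differences were 4.56 to 6.02 on the log2 scale, values that served to choose them. In the Dohh set, which was not used to choose them, 10 of the 11 were tested and all 10 were called higher, where 2.36% of all genes were, with nearest differences of 2.60 to 5.30. Atp1b1, a subunit of a membrane ion transporter, had 141 to 186 CPM against at most 7.38 CPM in the Odc set, and 202 to 258 CPM against 20.5 to 32.7 CPM in TH17 libraries and at most 2.29 CPM in TH1 and TH2 libraries of the Dohh set. The gene was thus low in TH1 and TH2 cells, and Treg cells were closer to TH17 cells in the Dohh set.

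Pla2g4f, a cytosolic phospholipase A2, had 53.4 to 96.2 CPM in Treg libraries of the Odc set and at most 1.50 CPM elsewhere, and 112, 144 and 136 CPM against at most 9.55 CPM in the Dohh set. Nav1, a neuron navigator that binds microtubules, had 81.0 to 104 CPM against at most 4.27 CPM, and 134 to 162 CPM against at most 8.60 CPM. Every Treg library lay far above every other library for both genes. Avpr1a, a vasopressin receptor, had 10.5 to 35.4 CPM in Treg libraries of the Odc set and at most 1.73 CPM elsewhere, and in the Dohh set it had 11.8 to 14.6 CPM and was at least 43.0-fold higher than in TH1 libraries. Fbln2, an extracellular matrix protein, had 5.79 to 14.1 and 3.77 to 6.28 CPM in Treg libraries and at most 0.348 CPM in any other. The remaining genes of this kind were low outside Treg cells as well. Stxbp6 (18.7 to 36.4 and 7.68 to 15.3 CPM in Treg libraries) binds SNARE proteins, Idi2 (10.3 to 16.5 and 4.99 to 7.03 CPM) is an isopentenyl-diphosphate isomerase, and no other library exceeded 0.808 CPM of either. Drc1 and Dnah7a, genes of the axoneme of cilia, had 12.8 to 33.3 and 14.3 to 48.8 CPM in Treg libraries of the Odc set and 9.61 to 23.0 and 8.61 to 21.1 CPM in those of the Dohh set, and at most 1.55 and 3.92 CPM in other libraries.

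Ifi203, which belongs to a cluster of interferon-inducible genes on chromosome 1, had 98.5 to 165 CPM in Treg libraries of the Odc set and at most 5.08 CPM elsewhere. It was at 0 counts in all WT libraries of the Dohh set, where it was not tested. Its neighbours were looked up after these values were seen. Ifi206 had 7.20 to 15.7 CPM in Treg libraries of the Odc set, at least 25.3-fold more than TH2 libraries, all at 0, and 1.54 to 4.27 CPM in those of the Dohh set, and it was called higher than each other subset in both. Ifi208 had 3.15, 11.97, 0.118 and 7.02 CPM in Treg libraries of the Odc set, where it did not pass the filter on low counts and was not tested, against 0 in TH1, at most 0.124 CPM in TH2 and 0.231 to 0.46 CPM in TH17 libraries. Treg replicate 3 lay below the TH17 libraries, so the ranges overlapped. In the Dohh set it had 1.23 to 3.64 CPM in Treg libraries against at most 0.497 CPM (nearest difference 2.82 ± 0.58, adjusted p = 0.00158). Aim2 had 32.5 to 49.8 and 39.9 to 51.6 CPM in Treg libraries against at most 29.8 and 33.4 CPM elsewhere, and its difference from the mean of the others, 0.85 ± 0.11 and 0.93 ± 0.12, was below 2-fold and not called (1.03, called, in the Dohh set without Treg replicate 2). Genes of this cluster are alike in sequence, and the counting could split their reads, so the level of each is uncertain. Single genes that interferon can induce, Xaf1, Ifi27l2a and Irf7, were picked after their values were seen and from no fixed list, so they do not describe such genes as a group. Xaf1 had nearest differences of 2.45 ± 0.25 and 1.35 ± 0.29, Ifi27l2a of 1.79 ± 0.21 and 1.80 ± 0.29, and Irf7, a transcription factor of the interferon response, of 1.65 ± 0.19 and 1.10 ± 0.20 (largest adjusted p = 0.00213), and each was called higher than each other subset in both sets. Irf7 had 19.9 to 31.2 CPM in Treg libraries of the Odc set and 17.4 to 24.1 CPM in those of the Dohh set, against at most 11.4 and 13.0 CPM.

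**Figure D3:**
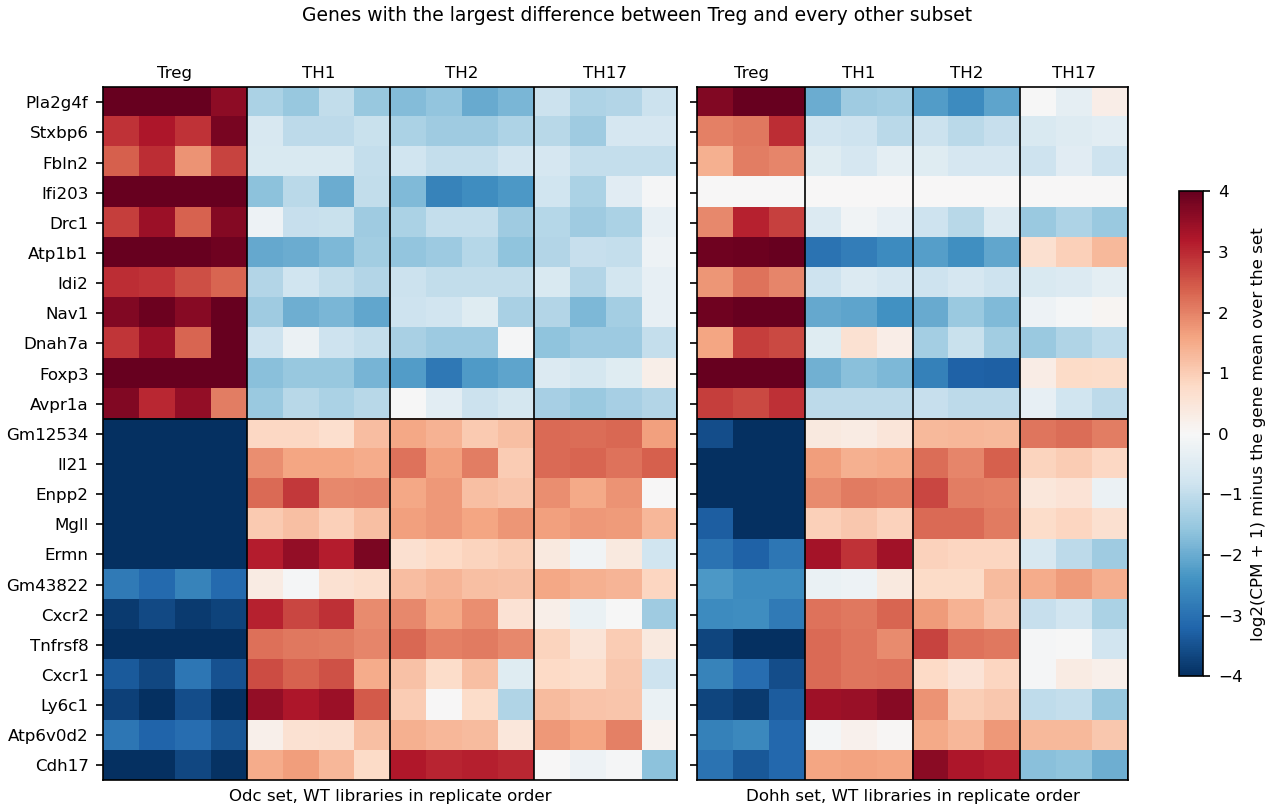
Genes with the largest nearest differences in the higher (top, 11 genes) and lower (bottom, 12 genes) direction, 1 column per WT library, left for the Odc set and right for the Dohh set. Color is log2(CPM + 1) minus the gene's mean over the set. Treg columns are red above and blue below the line in both sets, except Ifi203, which has a count of 0 in every library of the Dohh set.

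The 12 genes with the largest nearest differences in the lower direction were Gm12534, Il21, Enpp2, Mgll, Ermn, Gm43822, Cxcr2, Tnfrsf8, Cxcr1, Ly6c1, Atp6v0d2 and Cdh17. These values were -9.06 to -5.12 in the Odc set, again as chosen, and all 12 were called lower in the Dohh set, where 2.21% of all genes were, at -7.57 to -2.76. With all 8 groups in the fit the call of Cxcr2 in the Dohh set was lost (-3.98, adjusted p = 0.25). Several rest on a few counts in Treg libraries, and their fitted differences are then no bound. Il21, a cytokine of follicular helper and TH17 cells, had 0.653, 0.104, 2.01 and 0.113 CPM in Treg libraries of the Odc set, against 218 to 286 CPM in TH1, 156 to 356 CPM in TH2 and 355 to 411 CPM in TH17 libraries. The Dohh set had 0.615, 0 and 0.0867 CPM, against 78.9 to 92.8, 114 to 154 and 51.7 to 58.4 CPM. Il21 was thus nearly absent from Treg libraries and present in every other subset.

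Gm12534 and Gm43822 come from the Il21 locus and are not independent of it. Il21 lies at chr3:37222759-37232636 on the minus strand, Gm12534 is an antisense gene inside it at chr3:37231333-37232469, and Gm43822 lies just before its start at chr3:37232867-37233342. Gm12534 had at most 0.118 CPM in Treg libraries of the Odc set and 32.3 to 102 CPM elsewhere, and Gm43822 at most 0.354 CPM against 7.38 to 24.6 CPM. The order of the other subsets differed, since in the Dohh set TH17 libraries were lowest for Il21 and highest for Gm12534 (64.7 to 74.6 CPM, against 18.9 to 38.9 CPM in TH1 and TH2 libraries). With the strand setting unstated, reads of these genes and of Il21 cannot be told apart where they overlap. The sequence before the start of Il21, chr3:37232637-37232886 (minus strand), is shown because this locus holds 3 of the 12 genes. It has none of the 6 motifs, so no letters are in capitals.
Il21: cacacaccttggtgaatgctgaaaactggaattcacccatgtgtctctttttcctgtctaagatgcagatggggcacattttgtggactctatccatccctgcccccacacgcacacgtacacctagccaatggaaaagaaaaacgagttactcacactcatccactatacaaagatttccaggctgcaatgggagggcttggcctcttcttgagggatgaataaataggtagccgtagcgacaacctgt

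A pair of neighbouring receptors for CXC chemokines were among these genes. Cxcr2 had at most 0.312 CPM in Treg libraries of either set, against 57.6 to 132 and 29.2 to 34.8 CPM in TH1 and 4.96 to 17.6 and 1.91 to 3.18 CPM in TH17 libraries. Cxcr1 had at most 1.31 CPM in Treg libraries, against 37.3 to 82.0 and 63.9 to 69.3 CPM in TH1 libraries. TH1 cells had the highest levels of both, and Treg cells the lowest. Enpp2, which makes lysophosphatidic acid, had at most 0.708 CPM in Treg libraries and 23.6 to 289 CPM elsewhere, and Mgll, monoacylglycerol lipase, at most 2.38 CPM against 50.6 to 161 CPM. Tnfrsf8 encodes CD30, a TNF receptor of activated T cells, and had 3.64 to 6.02 CPM in Treg libraries of the Odc set, against 223 to 835 CPM elsewhere, and 4.33 to 8.22 CPM against 69.2 to 763 CPM in the Dohh set. Ly6c1 had at most 1.65 CPM in Treg libraries against 5.97 to 353 CPM, highest in TH1 cells. Ermn, Atp6v0d2, a subunit of the vacuolar proton pump, and Cdh17, a cadherin, had at most 0.433, 1.26 and 0.826 CPM in Treg libraries. The lowest other libraries had 2.98, 11.7 and 2.03 CPM of them.

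Genes that regulate Foxp3 or work with it moved in both directions. Of 39 such genes tested against the mean of the other subsets, 7 were called higher and 6 lower in the Odc set, and 6 and 7 in the Dohh set, of which 6 higher and 5 lower were the same genes. The calls made up 33.3% of the list in each set, beside 15.5% of all genes (6.91% higher and 8.55% lower) in the Odc set and 14.2% (6.68% higher and 7.54% lower) in the Dohh set. These shares over all genes hold for each list below, none of which was tested as a group. The median log2 fold change of the list was 0.035 and 0.025, beside -0.0068 and -0.0049 over all genes tested. Nr4a1 and Nr4a3, orphan nuclear receptors induced by T cell receptor signals, were higher than in each other subset. Nr4a3 had 325, 310, 302 and 361 CPM in Treg libraries of the Odc set and 125, 95.8 and 141 CPM in those of the Dohh set, against at most 41.9 and 30.7 CPM elsewhere. Its nearest difference was 3.55 ± 0.19 (adjusted p = 8.62e-10) and 2.27 ± 0.16 (adjusted p = 1.16e-09). Nr4a1 had 234, 251, 268 and 194 CPM against at most 74.6 CPM, and 213, 254 and 261 CPM against at most 125 CPM, and was named after its values were seen. Its nearest difference was 1.82 ± 0.11 (adjusted p = 2.9e-09) and 1.17 ± 0.12 (adjusted p = 2.03e-07). Egr3, another gene induced by receptor signals and named in the same way, had 43.2 to 50.2 CPM against at most 15.6 CPM in the Odc set and 12.4 to 17.4 CPM against at most 8.38 CPM in the Dohh set. For all 3 genes, Treg libraries did not overlap with other libraries in either set.

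The sequences before the starts of Nr4a3 and Nr4a1 are shown because both of these related genes were higher. The stretch chr4:48045055-48045152 (plus strand) of Nr4a3 holds 2 CRE cores, in capitals, 231 and 205 bases upstream of its start, and a further one at 147 bases and SMAD boxes at 44 and 8 bases lie in the part not shown, which a GENCODE transcript covers. The stretch chr15:101266596-101266845 (plus strand) of Nr4a1 holds 1 SMAD box, in capitals, 202 bases upstream of a RefSeq start. The CRE core is read by CREB and ATF factors and the SMAD box by SMAD3 and SMAD4. CRE cores are in 6.47% and SMAD boxes in 17.1% of all windows.
Nr4a3: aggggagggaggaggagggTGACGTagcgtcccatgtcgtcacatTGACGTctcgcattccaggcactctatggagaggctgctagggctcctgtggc
Nr4a1: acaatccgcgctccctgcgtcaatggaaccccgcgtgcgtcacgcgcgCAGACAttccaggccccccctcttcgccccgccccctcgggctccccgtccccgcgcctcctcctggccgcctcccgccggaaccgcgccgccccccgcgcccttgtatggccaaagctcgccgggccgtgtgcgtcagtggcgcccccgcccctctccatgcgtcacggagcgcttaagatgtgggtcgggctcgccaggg
Of the genes with the largest nearest differences, 11 higher and 7 lower ones have a window. None of them holds a CRE core or an NBRE, the motif bound by NR4A proteins. SMAD boxes are in Idi2, Pla2g4f and Ly6c1, and AP-1 sites (6.75% of windows) in Drc1, Ifi203 and Tnfrsf8. A forkhead motif (3.17%) is in Mgll, and the GAS element is in the Foxp3 window shown above.

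**Figure D4:**
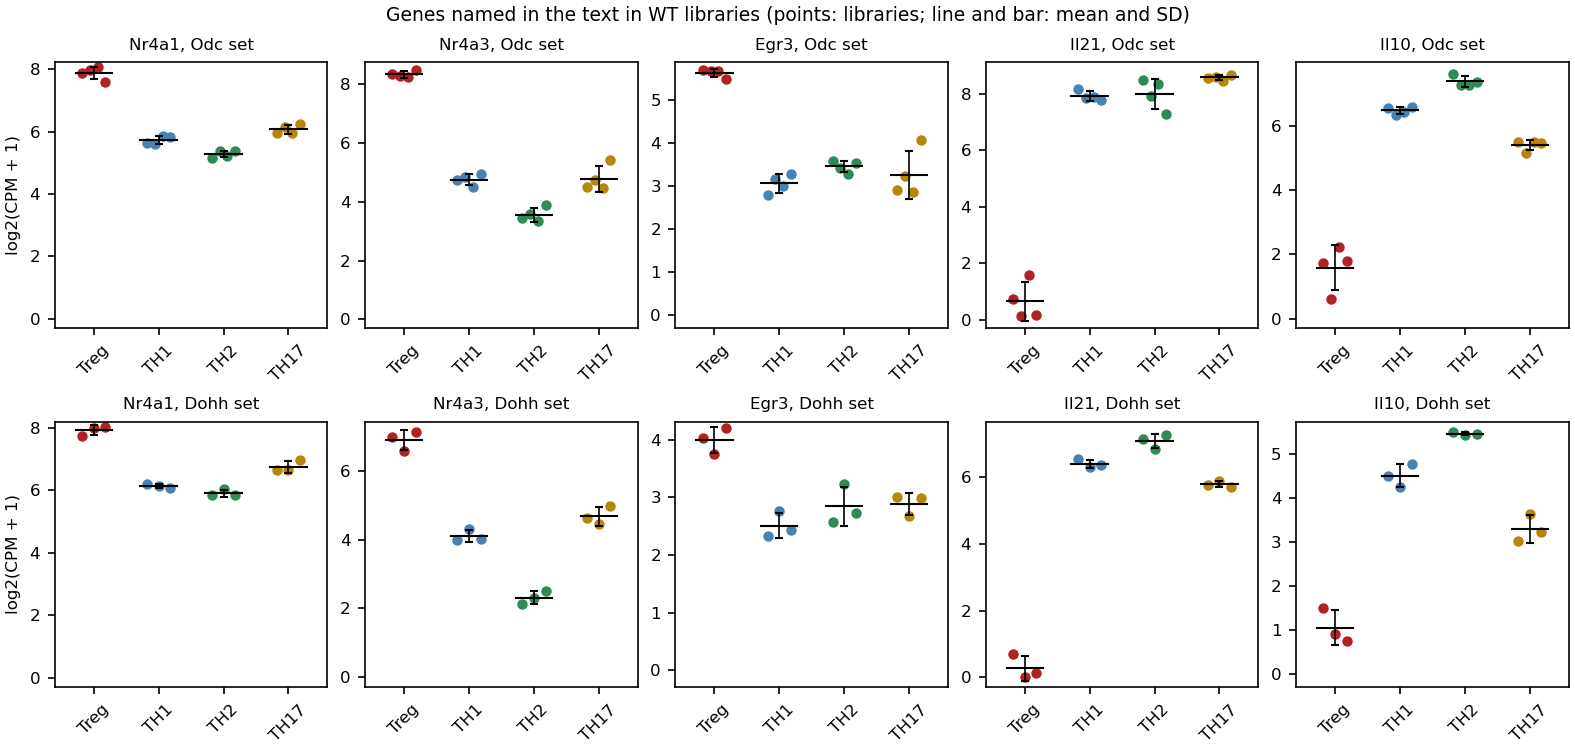
Levels of Nr4a1, Nr4a3, Egr3, Il21 and Il10 as log2(CPM + 1) in WT libraries of the Odc set (top row) and the Dohh set (bottom row). Points are libraries, and lines and bars are the mean and SD. Treg libraries are the highest for Nr4a1, Nr4a3 and Egr3 and the lowest for Il21 and Il10 in both sets.

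Rel, the NF-κB subunit c-Rel that acts at the Foxp3 locus, had 240 to 294 CPM in Treg libraries of the Odc set and 62.6 to 95.3 CPM in those of the Dohh set, against at most 72.1 and 35.9 CPM elsewhere. Its nearest difference was 2.23 ± 0.12 (adjusted p = 1.24e-09) and 1.35 ± 0.16 (adjusted p = 3.82e-06). Ikzf2, which encodes Helios, had 28.3 to 50.4 CPM against at most 23.0 CPM in the Odc set and was called higher than each other subset (1.03 ± 0.17, adjusted p = 0.000249). In Dohh Treg libraries it had 10.0 to 21.1 CPM, overlapped with TH1 libraries at 7.30 to 11.2 CPM, and was called against the mean of the others but not against TH1 cells. Ikzf4 (Eos) had 162 to 198 and 136 to 169 CPM against at most 120 and 87.0 CPM and was called against the mean of the others but not against each, at 1.15 ± 0.11 and 1.21 ± 0.10. Satb1, a chromatin organizer of T cells, was lower than in every other subset. It had 124, 90.9, 134 and 52.6 CPM against 889 to 1949 CPM in the Odc set, and 129, 72.1 and 103 CPM against 594 to 1264 CPM in the Dohh set, with nearest differences of -3.31 ± 0.22 and -2.75 ± 0.17. Batf, an AP-1 factor of TH17 and TH2 cells, had 29.6 to 31.5 CPM in all 7 Treg libraries, and at least 53.7 CPM in all others. Hif1a, a factor of glycolysis and of TH17 cells, had 342 to 593 and 151 to 241 CPM against at least 875 and 454 CPM.

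Genes of Treg surface and effector function were called in both directions. Of 37 tested, 12 were called higher (32.4%, beside 6.91% of all genes) and 5 lower (13.5%, beside 8.55%) against the mean of the others in the Odc set, and 11 (29.7%, beside 6.68%) and 6 (16.2%, beside 7.54%) in the Dohh set, with 9 higher and 4 lower in both, and median log2 fold changes of 0.30 and 0.25. Some canonical Treg genes were not higher than in other activated subsets. Il2ra (CD25) had 2426 to 3057 CPM in Treg libraries of the Odc set, and 2873 to 4493 CPM in the others. In Dohh Treg libraries it had 1071 to 1503 CPM, inside or near the TH17 range of 1152 to 1244 CPM and below TH1 libraries at 2449 to 2845 CPM. Ctla4 had 374 to 823 CPM against 642 to 988 CPM, and 512 to 671 CPM against 343 to 866 CPM, and was not called in either set.

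Nrp1, a semaphorin receptor, had 78.2 to 153 and 114 to 152 CPM in Treg libraries against at most 36.7 and 38.9 CPM (nearest difference 2.37 ± 0.26, adjusted p = 5.31e-06, and 1.91 ± 0.15, adjusted p = 4.95e-09). Socs2, an inhibitor of cytokine signalling, had 323 to 448 and 229 to 273 CPM against at most 249 and 132 CPM. Plagl1, a zinc finger factor, had 13.5 to 21.6 and 7.45 to 10.3 CPM against at most 6.35 and 4.08 CPM. These 3 genes were higher than in each other subset in both sets. Other genes of the list were shared with a second subset. Nt5e (CD73), which makes adenosine, had 350 to 471 CPM against 198 to 246 CPM in TH17 and at most 8.51 CPM in TH1 and TH2 libraries of the Odc set, and 560 to 708 CPM against 582 to 665 CPM in TH17 libraries of the Dohh set. Itgae (CD103), an integrin induced by TGF-β, had 9.58 to 19.6 CPM in Treg and 14.3 to 25.4 CPM in TH17 libraries of the Odc set, with at most 7.31 CPM in TH1 and TH2 libraries, and the ranges were 36.0 to 76.1 and 39.1 to 55.5 CPM in the Dohh set. Ccr8, a chemokine receptor, had 110 to 170 CPM in Treg and 130 to 150 CPM in TH2 libraries of the Odc set, and 115 to 129 against 65.3 to 80.6 CPM in the Dohh set.

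Il10, the gene of an inhibitory cytokine that many Treg cells secrete, was lower in Treg cells than in every other subset. It had 2.28, 0.520, 3.66 and 2.49 CPM in Treg libraries of the Odc set, against 80.1 to 93.6 CPM in TH1, 152 to 195 CPM in TH2 and 34.7 to 44.0 CPM in TH17 libraries. In Dohh Treg libraries it had 1.84, 0.879 and 0.693 CPM, against 18.1 to 26.5, 42.5 to 44.5 and 7.12 to 11.4 CPM. The nearest difference was -4.22 ± 0.25 (adjusted p = 3.58e-09) and -2.90 ± 0.28 (adjusted p = 1.71e-07). Ecm1, an extracellular matrix protein of TH2 cells, had 65.4 to 167 CPM against at least 440 CPM in the Odc set, and 177 to 202 CPM against at least 275 CPM in the Dohh set.

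Of the ligands, activators and receptors of the TGF-β pathway, 17 were tested, and 6 were called higher and 4 lower in the Odc set (58.8% in all), and 5 and 3 in the Dohh set (47.1%), with median log2 fold changes of 0.36 and 0.32. The type I receptor gene Tgfbr1 (chr4:47353222-47414931) was the member higher than in each other subset in both sets. It had 131 to 196 CPM in Treg libraries against at most 58.1 CPM in the Odc set, and 51.9 to 79.0 CPM against at most 30.2 CPM in the Dohh set, a nearest difference of 1.63 ± 0.18 and 1.31 ± 0.17. Thbs1, an activator of latent TGF-β, had 3.75 to 8.49 CPM in Treg libraries of the Odc set, overlapping with TH17 libraries at 1.62 to 5.95 CPM, and 15.6 to 34.8 CPM against at most 7.85 CPM in the Dohh set. Tgfbr3, the coreceptor betaglycan, had 13.4 to 28.7 CPM in Treg libraries against at least 63.0 CPM in the Odc set, and 15.4 to 33.2 CPM against at least 41.6 CPM in the Dohh set, where its call against the mean was lost without Treg replicate 2 (-0.87). The ligand gene Tgfb3 had 5.32 to 61.5 CPM in the Odc set, where it overlapped with TH2 and TH17 libraries, and 12.5 to 16.0 CPM against at least 27.9 CPM in the Dohh set. Tgfb1 itself had 245 to 301 and 397 to 425 CPM and was not called, at 0.36 ± 0.08 and 0.62 ± 0.10 against the mean of the others.

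Of the SMAD genes and inhibitors of the pathway, 4 of 16 tested were called higher and 1 lower in the Odc set (31.2% in all) and 6 of 17 higher and 1 lower in the Dohh set (41.2%), with medians of 0.30 and 0.39. The inhibitors named here were nearest to Treg levels in TH17 cells. Skil, which encodes SnoN, had 248 to 341 CPM in Treg, 168 to 233 CPM in TH17 and at most 85.0 CPM in TH1 and TH2 libraries of the Odc set, and 132 to 194, 100 to 114 and at most 42.1 CPM in the Dohh set. Pmepa1, which binds SMADs, had 99.1 to 128 CPM in Treg and 52.4 to 103 CPM in TH17 libraries, and 143 to 179 against 97.8 to 107 CPM. Ldlrad4 had 29.9 to 44.3 against 22.3 to 32.4 CPM, and 106 to 112 against 99.6 to 115 CPM, so that Treg and TH17 libraries overlapped in both sets. Smad7 had 34.1 to 50.8 and 49.6 to 72.5 CPM in Treg libraries and was called against the mean in the Dohh set alone (1.06 ± 0.11), a call lost without Treg replicate 3 (0.98). Ski, a related repressor, was not called against the mean in either set. Smad3, which carries the TGF-β signal, had 38.7 to 50.3 CPM against 140 to 210 CPM in TH17 and 62.2 to 103 CPM in TH1 and TH2 libraries of the Odc set. In Dohh Treg libraries it had 31.4 to 47.3 CPM against 98.1 to 122 and 52.6 to 66.7 CPM, and Treg libraries were the lowest in both.

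Among 21 known TGF-β targets tested, 9 were called higher (42.9%, beside 6.91% of all genes) and 4 lower (19%, beside 8.55%) in the Odc set and 13 (61.9%, beside 6.68%) and 3 (14.3%, beside 7.54%) in the Dohh set, with 9 higher and 3 lower in both and medians of 0.91 and 1.06. Of the targets called higher in both sets, Skil, Tgif1, Pmepa1 and Ldlrad4 were also counted among the SMAD genes and inhibitors. Itgae and Ccr8 were also counted among the Treg genes, so these lists are not independent. Rgs16, a regulator of G protein signalling, was the target higher than in each other subset in both sets. It had 122 to 196 CPM against at most 67.7 CPM and 260 to 285 CPM against at most 54.6 CPM, with nearest differences of 1.87 ± 0.22 and 2.39 ± 0.10. Id2, an inhibitor of E proteins, had 17.7 to 30.2 and 26.8 to 29.0 CPM against at least 132 and 82.4 CPM (nearest difference -3.04 ± 0.17 and -1.65 ± 0.12). The cultures of TH1 and TH2 cells held no TGF-β, so in this list the cytokine added and the cell type cannot be told apart against them. Against TH17 cells, whose cultures held TGF-β too, 3 targets were called higher and 6 lower in the Odc set and 5 and 3 in the Dohh set, beside 6.86% and 6.99% and 4.7% and 5.7% of all genes, and the medians were -0.41 and 0.24, of opposite sign in the 2 sets.

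Of 24 IL-2 and STAT5 genes tested, 1 was called higher (4.17%, beside 6.91% of all genes) and 6 lower (25%, beside 8.55%) in the Odc set, and of 23 tested 2 (8.7%, beside 6.68%) and 7 (30.4%, beside 7.54%) in the Dohh set, with medians of -0.37 and -0.48. Socs2, described above, was the gene higher in both sets against each other subset. Pim2, a survival kinase, had 80.1 to 117 and 58.5 to 75.0 CPM in Treg libraries against at least 290 and 168 CPM elsewhere. Socs3, which inhibits STAT3, had 53.6 to 105 CPM against at least 198 CPM in the Odc set and 133 to 164 CPM against at least 262 CPM in the Dohh set. The receptor gene Il2rb had 778 to 1171 and 702 to 763 CPM and Cish, a STAT5 target, 578 to 692 and 622 to 631 CPM in Treg libraries, and neither was called.

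Of the programs of the other lineages, most genes of the TH17 program were lower. Of 30 tested, 3 were called higher and 17 lower (56.7%, beside 8.55% of all genes) in the Odc set and 3 and 16 (53.3%, beside 7.54%) in the Dohh set, with medians of -1.46 and -1.06. Il17a had at most 0.566 CPM in Treg libraries of the Odc set and 270 to 410 CPM in TH17 libraries, and at most 0.628 CPM against 22.1 to 38.4 CPM in the Dohh set. Rora, which also supports TH17 cells, had 41.2 to 82.2 and 26.9 to 47.8 CPM in Treg libraries, between TH2 (21.3 to 30.8 and 5.91 to 7.33 CPM) and TH17 libraries (110 to 234 and 62.5 to 65.8 CPM), and it was called against the mean in the Dohh set only without Treg replicate 2 (1.04). Ccr6, the receptor shared by TH17 and Treg cells, had 39.2 to 74.1 CPM in Treg and 33.3 to 44.4 CPM in TH17 libraries of the Odc set, 34.7 to 47.5 and 18.3 to 30.4 CPM in the Dohh set, and at most 3.80 CPM in TH1 and TH2 libraries. Its ligand Ccl20 was at 0 in all TH1 and TH2 libraries and had 4.13 to 8.49 and 4.27 to 4.68 CPM in Treg libraries, at least 14.0-fold and 14.4-fold higher. TH17 libraries held more of it, 12.1 to 45.8 and 7.04 to 9.85 CPM.

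Of 22 TH2 genes tested, 1 was called higher and 14 lower (63.6%) in the Odc set and 3 and 8 (36.4%) in the Dohh set. The medians were -1.55 and -0.32, and -1.36 and -0.53 with groups at 0 set to the floor. Il4 had at most 1.13 CPM in Treg libraries against 35.4 to 72.0 CPM in TH2 libraries, and Il13 at most 4.24 against 187 to 653 CPM. Il24, a cytokine of the IL-10 family, had 1.87 to 8.49 CPM in Treg libraries of the Odc set against at least 32.5 CPM, while in the Dohh set Treg libraries at 3.03 to 5.07 CPM overlapped with TH17 libraries at 2.75 to 5.57 CPM. Ccr3, a chemokine receptor, had at most 0.109 CPM in Treg libraries of the Odc set, against 1.76 to 8.41 CPM. Of 25 TH1 genes tested, 8 were called higher and 9 lower in the Odc set and 4 and 9 in the Dohh set, with medians of -0.19 and -0.11. Against TH1 cells themselves 3 were higher and 14 lower in the Odc set and 1 and 16 in the Dohh set, beside 8.29% higher and 10.8% lower and 8.8% and 10.2% of all genes. Against TH17 cells 9 were higher and 4 lower, and 8 and 4, with medians of 0.54 and 0.71, beside 6.86% and 6.99% and 4.7% and 5.7% of all genes. Ifng had 8.01 to 19.0 and 3.30 to 6.28 CPM in Treg libraries and 523 to 1890 and 203 to 280 CPM in TH1 libraries. Il12rb2, a receptor chain for IL-12, was lower than in each other subset, at 36.9 to 144 CPM against at least 171 CPM and at 28.6 to 43.7 CPM against at least 70.2 CPM. Hlx, a partner of T-bet, had at most 0.566 CPM in Treg libraries against 23.5 to 40.4 CPM in TH1 libraries. Xcl1, a chemokine for cross-presenting dendritic cells, was the gene of the list called higher than each other subset in both sets, and Fasl, Il18r1 and Il18rap were also called higher against the mean in both. It had 9.36 to 19.7 CPM against at most 4.38 CPM in the Odc set and 14.0 to 16.5 CPM against at most 4.66 CPM in the Dohh set. Eomes, a factor related to T-bet, had 6.68 to 8.85 CPM against at most 3.08 CPM in the Odc set, but 1.005 to 1.56 CPM in the Dohh set, overlapping with the TH1 range of 1.21 to 2.55 CPM. It was not called against the mean in the Dohh set, except when 1 of 4 libraries was left out (1.07 to 1.15), namely TH1 replicate 3, TH2 replicate 1, TH17 replicate 2 or Treg replicate 2.

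Of 23 genes of naive and central memory cells, 5 were called higher and 5 lower in the Odc set (43.5% in all) and 6 and 5 in the Dohh set (47.8%), with medians of 0.12 and 0.54. Klf3, a repressor related to Klf2, had 38.9 to 58.2 CPM against at most 5.17 CPM in the Odc set and 37.7 to 54.4 CPM against at most 19.7 CPM in the Dohh set. Klf2, which maintains receptors for exit from tissue, had 68.1 to 98.1 CPM against at most 18.9 CPM in the Odc set, and 121 to 205 CPM in the Dohh set, where TH17 libraries reached 102 to 136 CPM. Tcf7, which encodes TCF-1, had 170 to 241 and 48.0 to 60.1 CPM in Treg libraries, above TH1 and TH2 (at most 111 and 15.7 CPM) and below TH17 libraries (at least 393 and 94.6 CPM). Ccr7, a lymph node homing receptor, had 281 to 1345 CPM in the Odc set, where it was not called against the mean of the others (1.05, called, without Treg replicate 4), and 1164 to 1483 CPM in the Dohh set, where it was called against the mean (1.13 ± 0.10). Lef1, a factor related to TCF-1, had 142 to 181 and 108 to 159 CPM and was not called in either.

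Of 24 homing receptors and integrins tested, 5 were called higher and 7 lower in the Odc set and 7 and 5 in the Dohh set (50% in all in each set), with medians of 0.010 and 0.18. Itga4, the integrin α4 chain, was higher than in each other subset, with 126, 116, 106 and 33.5 CPM against at most 18.8 CPM and 56.5, 37.6 and 59.0 CPM against at most 16.8 CPM. Its partner Itgb7 had 242 to 392 and 440 to 462 CPM and was not called. Ccr2 had 1.35 to 4.96 and 0.502 to 1.13 CPM against at least 8.56 and 3.70 CPM. Ccr9, a gut homing receptor, had at most 0.231 CPM in any library and was not tested. Aldh1a2, which makes retinoic acid, was looked up after its values were seen. It had 4.49 to 8.37 CPM in Treg libraries of the Odc set, at least 19.5-fold more than TH17 libraries, all at 0, and 0.999 to 2.51 CPM in those of the Dohh set, against at most 0.146 CPM in other libraries of either.

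Of 26 coinhibitory and costimulatory receptors and ligands, 4 were called higher and 5 lower in the Odc set (34.6% in all, beside 15.5% of all genes) and 3 and 8 in the Dohh set (42.3%, beside 14.2%), with medians of -0.26 and -0.19. Tnfsf11, which encodes RANKL, was higher than in each other subset, with 71.8 to 123 CPM against at most 25.6 CPM and 40.2 to 50.8 CPM against at most 20.5 CPM. Its receptor Tnfrsf11a, named after its values were seen, had 3.23 to 4.57 CPM against at most 1.02 CPM and 1.46 to 2.08 CPM against at most 0.409 CPM. Cd96 had 29.3 to 46.1 CPM against at most 21.4 CPM and 62.7 to 71.1 CPM against at most 35.0 CPM. Tnfsf8, the ligand of CD30, had 16.0 to 26.2 CPM against at least 56.5 CPM in the Odc set. In Dohh Treg libraries its 7.45 to 13.6 CPM overlapped with TH17 libraries at 10.0 to 12.8 CPM. Cd80 and Cd40, costimulatory genes best known from antigen-presenting cells and named after their values were seen, were higher than in each other subset. Cd80 had 88.4 to 215 and 67.3 to 94.9 CPM against at most 29.9 and 20.2 CPM, and Cd40 had 7.32 to 16.7 and 26.3 to 33.8 CPM against at most 5.42 and 9.90 CPM.

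Polyamine and hypusine genes were called about as often as all genes. Of 22 tested, 1 was called higher and 3 lower in the Odc set (18.2% in all, beside 15.5% of all genes) and 1 and 2 in the Dohh set (13.6%, beside 14.2%), with medians of 0.034 and -0.22. Smox, spermine oxidase, had 137 to 151 CPM against 275 to 607 CPM and 139 to 148 CPM against 311 to 419 CPM, a difference from the mean of -1.54 ± 0.09 and -1.35 ± 0.09. Azin2, an antizyme inhibitor, had 2.15 to 6.14 and 6.07 to 7.54 CPM, like TH17 libraries (4.26 to 4.73 and 5.01 to 7.53 CPM) and far below TH2 libraries (85.9 to 97.3 and 155 to 172 CPM). Odc1, the gene of ornithine decarboxylase, had 367 to 479 CPM against 422 to 854 CPM and 350 to 433 CPM against 481 to 661 CPM, and at -0.54 ± 0.14 and -0.51 ± 0.09 it was not called. Srm, spermidine synthase, had 13.6, 15.8, 12.6 and 64.5 CPM in Treg libraries of the Odc set against 32.3 to 105 CPM, and 42.1 to 54.9 CPM against 43.1 to 144 CPM in the Dohh set. It was called in the Odc set (-1.07 ± 0.41, adjusted p = 0.0408), a call lost without Treg replicate 1, 2 or 3, TH2 replicate 3 or 4, or replicate 4 of TH1 or TH17 cells (-1.07 to -0.83), and not in the Dohh set (-0.85 ± 0.13). Sms, Dhps, Dohh and Eif5a were not called against the mean in either set. Eif5a, the protein that carries hypusine, had 578 to 1189 and 588 to 744 CPM against at least 1004 and 601 CPM.

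Of 22 glycolysis genes, 1 was called in the Odc set (4.55%) and 2 in the Dohh set (9.09%), all lower, with medians of -0.27 and -0.30. Hk2, a hexokinase, was the member lower in both, at 95.2 to 109 CPM against at least 141 CPM and at 86.3 to 107 CPM against at least 160 CPM. Slc2a1, a glucose transporter, had differences from the mean of -0.99 ± 0.09 and -0.82 ± 0.12, just inside the 2-fold threshold in the Odc set (-1.08, called, without the libraries numbered 4, and -1.07 or -1.01, also called, without Treg replicate 4 or TH17 replicate 1), and Ldha had -0.17 ± 0.09 and -0.05 ± 0.10. Of 24 lipid genes tested, 2 were called higher and 1 lower in the Odc set (12.5% in all), and of 23 tested 1 was called, higher, in the Dohh set (4.35%), with medians of 0.11 and 0.079. Scd1, a fatty acid desaturase, was higher than in each other subset, with 562 to 618 CPM against at most 152 CPM and 318 to 361 CPM against at most 125 CPM. Hmgcs1, an enzyme of cholesterol synthesis, had 404 to 560 CPM against at most 240 CPM in the Odc set, but 202 to 259 CPM against 86.2 to 287 CPM in the Dohh set. Acadl, an acyl-CoA dehydrogenase, was called lower in the Odc set alone (-1.09 ± 0.12, and -0.98, not called, without Treg replicate 4), and Cpt1a, the gate of fatty acid oxidation, was not called, at 0.49 ± 0.08 and 0.74 ± 0.08. Of 40 cell cycle genes, 1 was called higher and 2 lower in the Odc set (7.5% in all) and 2, both lower, in the Dohh set (5%), with medians of 0.41 and 0.032. Mki67 had 1135 to 1261 CPM against at most 970 CPM in the Odc set and 335 to 382 CPM against at most 338 CPM in the Dohh set, and neither it nor Top2a was called. The inhibitor Cdkn2c had 54.8 to 63.4 CPM against at most 25.0 CPM in the Odc set and was not called in the Dohh set, except without Treg replicate 2 (1.01). Cdk6 and Cdkn1a were called lower in both.

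**Figure D5:**
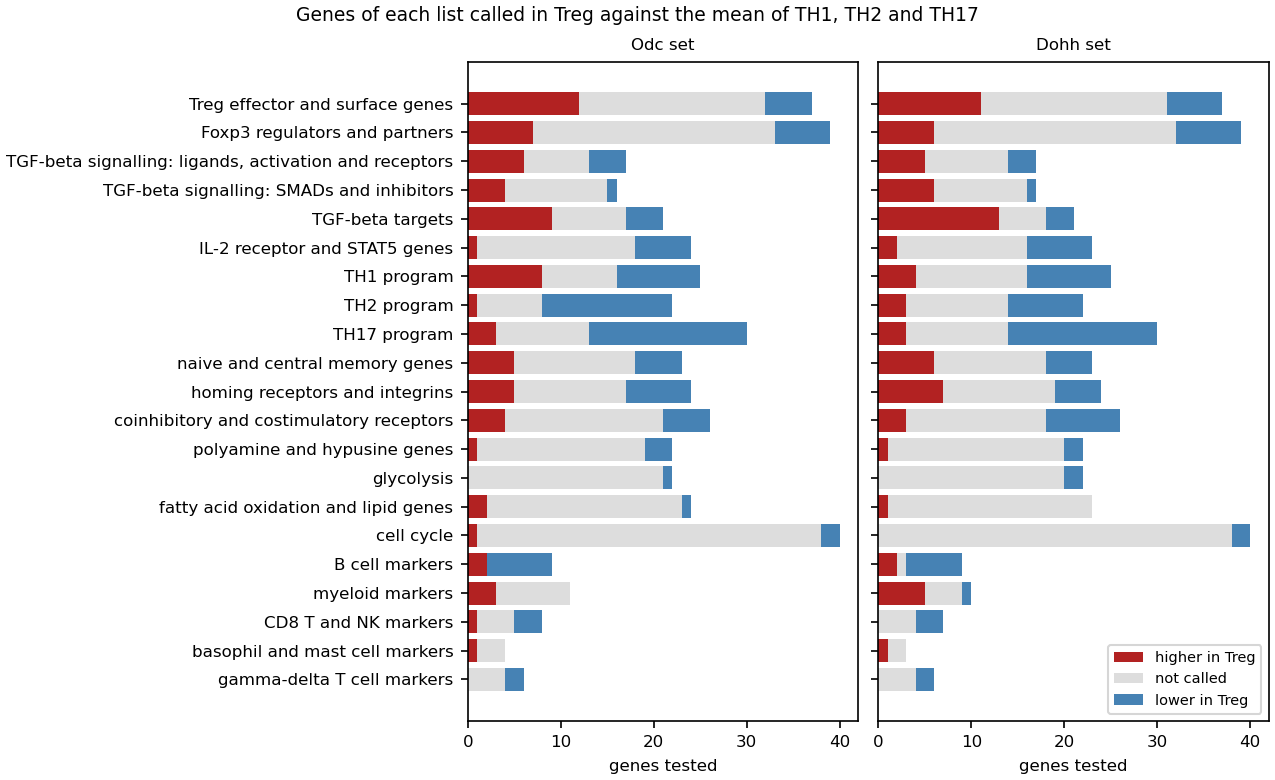
Genes of 21 lists called higher (red), called lower (blue) or not called (grey) in Treg against the mean of TH1, TH2 and TH17 cells, left for the Odc set and right for the Dohh set. Bar length is the number of genes tested. The TH17 list has 17 and 16 lower genes, and glycolysis genes are nearly all grey.

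Markers of other cell types differed between the cultures. Of 9 B cell markers tested, 2 were called higher in Treg cells in both sets, Ighm and Ighd, and 7 were called lower in the Odc set and 6 in the Dohh set, with medians of -2.02 and -1.62. Ighm, the constant region of IgM, had 210 to 251 CPM against at most 141 CPM in the Odc set and 284 to 294 CPM against at most 256 CPM in the Dohh set. Without Ighm and Ighd, the summed level of the B cell markers was 6.35 to 12.8 CPM in Treg libraries of the Odc set, 36.2 to 77.9 CPM in TH1, 53.7 to 124 CPM in TH2 and 10.3 to 19.4 CPM in TH17 libraries, and 9.67 to 12.5, 19.2 to 27.1, 42.5 to 85.8 and 23.2 to 43.4 CPM in the Dohh set. Markers of CD8 T and NK cells summed to 41.4 to 79.2 CPM in Treg libraries of the Odc set, against 152 to 310 CPM in TH1 and 161 to 379 CPM in TH2 libraries, and to 33.2 to 46.7 CPM against 128 to 175 and 227 to 345 CPM in the Dohh set. TH17 libraries, at 60.7 to 128 and 44.9 to 53.2 CPM, overlapped with Treg libraries in both sets. In TH1 and TH2 libraries most of the sum came from Prf1 (mean 101 CPM in TH1) and Gzma (mean 198 CPM in TH2, Odc set), genes of cytotoxic granules. Cd8a ran the other way, at a mean of 15.0 CPM in Treg, 8.81 CPM in TH1 and 3.92 CPM in TH2 libraries of the Odc set and 8.41, 4.89 and 3.53 CPM in the Dohh set. Its Treg and TH1 ranges in the Odc set overlapped, at 6.35 to 28.9 and 3.33 to 21.8 CPM. Cd8b1 followed in part, at means of 11.4, 6.79 and 10.7 CPM in Treg, TH1 and TH2 libraries of the Odc set and 15.0, 9.15 and 17.2 CPM in the Dohh set. Of 8 tested in the Odc set, 1 was called higher, Eomes, and 3 lower, and of 7 in the Dohh set 3, all lower, with medians of -0.55 and -0.47. Myeloid markers summed to 107 to 152 CPM in Treg libraries of the Odc set, inside the range of all other libraries, and to 176 to 200 CPM in the Dohh set, above TH1 (108 to 115 CPM) and TH2 (130 to 173 CPM) and around TH17 libraries (185 to 187 CPM). Cst3, which many cells express, made up much of this sum, at means of 73.5 to 92.9 CPM in every subset of the Odc set. Lyz2, lysozyme of myeloid cells, had a mean of 17.9 CPM in Treg and 19.6 CPM in TH17 libraries against 0.292 CPM in TH1 and 0.162 CPM in TH2 libraries of the Odc set, and 10.5 and 17.1 against 0.159 and 0.308 CPM in the Dohh set. Of 11 and 10 tested, 3 were called, all higher, in the Odc set, and 5 higher and 1 lower in the Dohh set, with medians of 0.39 and 0.80. Basophil and mast cell markers summed to 26.6 to 46.0 CPM in Treg, 30.8 to 48.6 CPM in TH17 and 5.06 to 19.0 CPM in TH1 and TH2 libraries of the Odc set. In the Dohh set the sums were 14.2 to 21.8, 16.4 to 25.9 and 4.03 to 7.30 CPM. Most of the sum in Treg and TH17 libraries came from Kit, at means of 29.0 and 25.9 CPM in the Odc set and 14.6 and 18.3 CPM in the Dohh set. Of 4 and 3 tested, 1 was called in each set, Kit, which was higher, with medians of 0.070 and 0.73. Markers of γδ T cells summed to 18.01 to 40.2 and 28.1 to 56.6 CPM in Treg libraries, against 16.1 to 73.5 and 40.0 to 69.1 CPM elsewhere, and of 6 tested 2 were called in each set, both lower, with medians of -0.65 and -0.40. The γδ marker called lower in both sets was Blk, which is also counted among the B cell markers called lower. Cd163l1 was at 0 in all Treg libraries of both sets, where TH1 and TH17 libraries had means of 0.632 to 1.32 CPM. Itgam was at 0 in every library of the Dohh set, whatever the subset, and Mpo had at most 0.168 CPM in any library of either set. The part of these other cells in the differences between cultures was not tested.

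The Treg difference itself differed between the sets for a small share of genes. Fitted in 1 model, it was called in 194 of 13694 genes (1.42%), 95 with a larger and 99 with a smaller value in the Odc set. The count was 122 without Treg replicate 2 of the Dohh set and 258 without Treg replicate 4 of the Odc set. Foxp3 was not among them, at 6.05 and 5.88 against the mean of the others (difference 0.19 ± 0.22, adjusted p = 0.7). Cx3cr1, the fractalkine receptor, was, with 22.2 to 29.6 and 18.6 to 27.5 CPM in Treg libraries, at most 3.46 CPM in other libraries of the Odc set and 8.06 to 16.2 CPM in those of the Dohh set. Its Treg levels were alike and the other subsets differed.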

How the data were processed

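RNA of 28 WT libraries was compared, 16 in the Odc set and 12 in the Dohh set. Per the labels the RNA was extracted with RNeasy columns and sequenced from TruSeq stranded mRNA libraries on an Illumina HiSeq instrument. The submitters' processing notes name STAR, featureCounts, deepTools, DESeq2 and mm10. Their versions, the annotation release and the strand setting are not given in the sources used here. The authors deposited whole-number counts per gene, not normalized. Of 47937 genes listed, 627 had no symbol in GENCODE M21 and held 0.0391% and 0.0149% of the WT counts.

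Each set was fitted on its own in edgeR 4.0.16 (R 4.3.3) with TMM scaling, filterByExpr over the 4 WT groups and the robust quasi-likelihood test, with Benjamini-Hochberg adjustment over all genes tested. For the test against each other subset, p was the largest of the 3 pairwise values. The difference between sets came from 1 fit of both. Counts were also simulated with 200 changed genes. The test against the mean recovered 199 in the Odc set and 200 in the Dohh set, with 1 false call in each. The test against each subset recovered 197 and 200 with 0 false calls. These figures describe the simulated differences only. How well the tests recover real genes at low counts or near the fold threshold was not tested.

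Named genes were the 12 largest nearest differences in each direction among Odc set calls (at least 10 CPM in Treg libraries for higher genes, and in each other group for lower ones), Foxp3, anchor genes of the lists, and up to 2 further genes per direction and list. Some genes that this rule names are not reported here. The members, lists and motifs were chosen with earlier results of these data known. Genes said to be named after their values were seen lie outside the rule. WT libraries of one number in the Odc set deviated together (correlations of 0.249 to 0.618 over 24 pairs), so they may be paired, as read from the data only. The labels state no pairing, and the main fits held no term for it. Alternatives were RLE size factors, DESeq2 1.42.0, other count filters, a replicate block, all 8 groups in the fit, and leaving out each library.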

Additional observations from a re-analysis of the deposited data

Results flagged for a closer look

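In 12 of 209 groups of 4 libraries, 1 library stood apart from the other 3. The 209 include groups at very low levels that were not tested, so this share cannot be set against the chance of about 1 in 20. Treg libraries entered for all named genes, and the other subsets only for the genes with the largest nearest differences. Of the 12 groups, 8 were Treg replicate 4 of the Odc set. It was low for Tcf7 (170 CPM), Acadl (90.7 CPM), Cd3d (218 CPM) and Egr3 (43.2 CPM), and high for Srm (64.5 CPM), Cdk6 (206 CPM), Il9 (7.13 CPM) and Tlr2 (25.2 CPM). The other 4 were Dnah7a in TH1 replicate 2 (1.59 CPM) and TH2 replicate 4 (2.00 CPM), and Gm12534 (63.2 CPM) and Ly6c1 (24.6 CPM) in TH17 replicate 4, all of the Odc set.

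The Treg difference from the mean of the other subsets was larger in the Odc than in the Dohh set, by the test of the difference itself in edgeR with Benjamini-Hochberg adjustment, for Cx3cr1 (by 5.15 on the log2 scale, adjusted p = 4.19e-12), Eomes (2.16, adjusted p = 0.0124), Tox (1.40, adjusted p = 0.00624), Klf3 (1.25, adjusted p = 0.00324), Gpr83 (1.19, adjusted p = 0.0101), Tnfsf11 (1.17, adjusted p = 0.0147), Egr3 (1.08, adjusted p = 0.0101) and Cd80 (1.0004, adjusted p = 0.0124). The value was lower in the Odc set for Cd40 (-1.43, adjusted p = 0.0185) and Tnfrsf8 (-1.03, adjusted p = 0.0248). The sets differ in mouse cross and perhaps in counting, which cannot be told apart.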

How the results depend on the processing

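When only genes with a mean count of at least 50 were tested, fewer genes were tested and the calls fell to 1041 against the mean, 1345 against TH1, 1507 against TH2, 962 against TH17 and 439 against each in the Odc set, to 985, 1388, 1510, 709 and 344 in the Dohh set, and to 226 shared. With all 8 groups in the fit, 347 genes were called against each subset in the Dohh set and 269 in both sets, and the cause was not tested. With 1 library left out, calls against the mean, TH1, TH2, TH17 and each ranged over 1952 to 2098, 2433 to 2587, 2626 to 2775, 1708 to 2045 and 699 to 825 in the Odc set and over 1759 to 1918, 2418 to 2559, 2582 to 2737, 1233 to 1456 and 534 to 630 in the Dohh set, with 361 to 420 shared. Without all 4 libraries numbered 4 in the Odc set, chosen after seeing the data, 835 genes were called against each subset. Genes that differed between sets ranged from 122, without Treg replicate 2 of the Dohh set, to 258.

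The replicate block gave 2010, 2496, 2688, 1867 and 816 calls in the Odc set, 1829, 2471, 2644, 1356 and 599 in the Dohh set and 419 shared, and changed no named call. In the Dohh set same-numbered libraries correlated at 0.0153 to 0.368 over 18 pairs and 12 of 12 libraries correlated best with their own number, a hint from the data only.

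Signs turned for uncalled genes near 0 against the mean. Rora in the Odc set was at -0.0049 with the replicate block and -0.011 with all 8 groups, and ranged from -0.0904 to 0.19 with 1 library left out. In the Dohh set Top2a was at 0.0074 with RLE, 0.0076 with DESeq2, 0.00175 with no filter, 0.013 at a mean count of 50 and 0.00092 with all 8 groups. With 1 library left out it ranged from -0.043 to 0.062, Cish from -0.0012 to 0.039, Dohh from -0.12 to 0.089, Ldha from -0.17 to 0.014, Cd3e from -0.0045 to 0.11 and Cd3d from -0.22 to 0.0699.

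The call of Srm in the Odc set was lost without any of 7 libraries and with no filter (adjusted p = 0.145 in edgeR), and in the Dohh set those of Smad7 without Treg replicate 3 (0.98) and of Tgfbr3 without Treg replicate 2 (-0.87). Without the latter library Rora (1.04), Aim2 (1.03) and Cdkn2c (1.01) gained one, as Eomes did without any of 4 libraries (1.07 to 1.15) and Il9 in the Odc set without TH17 replicate 4 (1.72). Without Treg replicate 4, Acadl lost its call in the Odc set (-0.98) and Tbx21 (-1.26), Gata3 (1.08) and Ccr7 (1.05) gained one. With all 8 groups, Tgfb3 in the Odc set and Tcf7, Egr3 and Cxcr2 in the Dohh set were not called, at an adjusted p of 0.0505 to 0.25 in edgeR.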
